A study of Mus musculus with 7 samples.

Results

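The AP-1 transcription factors were described here as 10 genes of the Fos, Jun, Atf, Batf and small Maf families: Fos, Fosb, Fosl1, Fosl2, Jun, Junb, Jund, Atf3, Batf and Maff. They were taken by symbol from the 24346 genes of the expression table, and all 10 passed the filter on low values that left 14151 genes for testing (a mean of at least 0.5 FPKM over all libraries). FPKM is the number of fragments mapped to a gene, scaled to the length of its transcript and to the number of mapped fragments in the library, so that levels of genes of different length can be compared. RNA was sequenced from primary neurospheres, which are floating clusters of cells grown in FGF and EGF from the hippocampus of single 2-month-old C57/BL6 mice. There were 4 control libraries (WT_116, WT_213, WT_215 and WT_220) and 3 Med23 CKO libraries (KO_117, KO_214 and KO_218). Batf, with a mean of 0.420 FPKM in control, passed the filter on low values only through its 2.84 FPKM in KO_214. The study describes groups of equal size, with fewer controls than the table holds. All 4 controls were used, since no label sets any of them apart. Med23 CKO mice carried Nestin-CreER and were homozygous for a Med23 allele with floxed exons, so recombination was limited to cells with Nestin promoter activity and to their progeny. Controls, labelled wild type, were littermates with Med23 flox/+ or Med23 flox/flox alleles and without Cre. Both groups had received tamoxifen by gavage at 200 mg/kg on 5 days in a row and had recovered for 3 to 4 weeks. The labels place that treatment at 2 months of age, whereas the methods place it earlier for mice used in cultures. The comparison asks which genes differ once Med23, a subunit of the Mediator complex between transcription factors and RNA polymerase II, is deleted, and Jun and Fos are genes that the introduction of the study connects with Med23.

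AP-1 is a dimer of proteins with a basic region that binds DNA and a leucine zipper that pairs the partners. Jun proteins can pair with each other, whereas Fos proteins need a partner such as a Jun protein. Fos, Fosb, Jun and Junb are immediate early genes, which growth factors and neuronal activity induce within minutes through kinases and preformed factors, and in the hippocampus Fos is widely used as a mark of recently active neurons. Fosl1 and Fosl2 lack the strong activation domain of Fos. Jund is expressed more steadily, Atf3 is induced by stress, Batf pairs with Jun proteins in immune cells, and Maff is a small Maf protein that binds related sites.

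The genes lie on 8 chromosomes of GRCm38, the build the authors called mm10, in the GENCODE M21 annotation. Fos (chr12:85473890-85477273, forward strand, 4 exons) and Batf (chr12:85686669-85709087, forward strand, 3 exons) were separated by 209396 bases. Jun (chr4:95049034-95052222, reverse strand), Junb (chr8:84974484-84978718, reverse strand) and Jund (chr8:70698949-70700616, forward strand) each had a single exon. The strand setting of the counting is not given in the sources used here, so reads of overlapping genes on opposite strands cannot be told apart. The overlaps were 351 bases of Junb with Prdx2, whose level was 332 to 539.9 FPKM, 2767 bases of Fosl1 with Ccdc85b, 689 bases of Jun with the antisense gene Junos, and 919 bases of Jund with the antisense gene Gm11175, and 108 bases of Atf3 with Gm24748.

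The start regions were read from RefSeq sequences (GRCm38.p6), which hold 250 bases before and 50 bases after each start and were found for 9 of the 10 genes, with Fosl1 not among them. RefSeq and GENCODE starts do not always coincide: the Jund window lies wholly before the Jund gene as given above, and the windows of Atf3 and Fosl2 lie inside the annotated genes (Atf3, chr1:191170296-191218039, reverse strand). The motifs searched on both strands were TGACGTCA, the cAMP response element, TGACGT, its shorter form, which lies within it, TGACTCA, the classical AP-1 site, TGACNTCA, which takes in TGACGTCA and the TGACATCA of Jun, TATAAA, and the CArG box, the site of serum response factor. These motifs were chosen with the sequences in view. TGACGT was found for 4 of the 9 genes (Fos, Batf, Atf3 and Maff) and in 7.51% of all 32807 such windows. TGACNTCA was found for 2 of the 9 genes (Jun and Maff) and in 8.84% of all windows, and TGACGTCA for 1, Maff, and in 1.79%. TATAAA was found for 2 of the 9 genes, Fos and Junb, and in 13.6% of all windows. TGACTCA (5.21% of all windows) and the CArG box (1.63%) were found for 0 of the 9 genes in these windows. Sites farther than 250 bases before a start were not searched, so this does not show that the genes lack them. The windows of the member with the lowest p-value (Fos), the member with the highest level (Jun), the member with the highest mean difference (Atf3) and the member with the full cAMP response element (Maff, the second of its 3 starts) are printed 5′ to 3′ on the strand of the gene, with matches in capitals. In Fos, TGACGT lies at positions -66 to -61 and TATAAA at -33 to -28, counted from the start. In Jun, TGACATCA lies at -45 to -38, in Atf3 the reverse complement of TGACGT at -8 to -3, and in Maff TGACGTCA at -29 to -22.
Fos, chr12:85473640-85473939, forward strand: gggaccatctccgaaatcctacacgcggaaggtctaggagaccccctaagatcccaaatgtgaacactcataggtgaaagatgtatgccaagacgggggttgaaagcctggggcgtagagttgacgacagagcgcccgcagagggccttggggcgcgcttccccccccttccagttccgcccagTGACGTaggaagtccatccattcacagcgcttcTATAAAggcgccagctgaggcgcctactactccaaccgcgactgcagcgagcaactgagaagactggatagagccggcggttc
Jun, chr4:95052173-95052472, reverse strand: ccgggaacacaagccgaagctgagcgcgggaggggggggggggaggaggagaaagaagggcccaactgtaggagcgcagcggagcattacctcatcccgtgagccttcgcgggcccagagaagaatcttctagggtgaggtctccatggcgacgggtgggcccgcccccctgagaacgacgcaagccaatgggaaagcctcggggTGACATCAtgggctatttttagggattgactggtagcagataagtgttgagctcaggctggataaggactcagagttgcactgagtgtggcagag
Atf3, chr1:191183284-191183583, reverse strand: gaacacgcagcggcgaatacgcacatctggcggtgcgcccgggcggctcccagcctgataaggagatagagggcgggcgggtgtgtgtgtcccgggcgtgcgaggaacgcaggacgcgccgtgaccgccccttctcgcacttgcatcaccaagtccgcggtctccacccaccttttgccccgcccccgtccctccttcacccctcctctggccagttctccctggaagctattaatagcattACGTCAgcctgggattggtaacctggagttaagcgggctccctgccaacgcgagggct
Maff, chr15:79347270-79347569, forward strand: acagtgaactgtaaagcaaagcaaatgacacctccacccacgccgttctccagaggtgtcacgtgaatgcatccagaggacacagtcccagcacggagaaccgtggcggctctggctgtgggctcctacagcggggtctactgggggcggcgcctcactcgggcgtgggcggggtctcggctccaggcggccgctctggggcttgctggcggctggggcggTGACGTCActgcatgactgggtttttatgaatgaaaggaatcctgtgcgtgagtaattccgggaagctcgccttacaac

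The libraries differed widely within each group. KO_214 held 12.2% of its summed FPKM in its 10 highest genes, against 5.12% to 8.61% in the other libraries. Microglia and macrophage markers (14 genes) summed to 113, 236, 317 and 46.6 FPKM in WT_215, WT_116, WT_213 and WT_220, against 49.4, 1491 and 246 FPKM in KO_117, KO_214 and KO_218. Neural stem and progenitor markers (12 genes) summed to between 1911 and 3913 FPKM in controls, against between 2105 and 3938 FPKM in Med23 CKO, and 0 of them were listed at 0 in any library, so that the markers of the labelled cell type were detected in each. Oligodendrocyte markers (6 genes) reached 4828 FPKM in WT_116 and were 141 FPKM in KO_117. In bulk RNA, fewer cells of a type and less RNA per cell cannot be told apart. Xist, which is transcribed in female cells, was at 91.3 FPKM in WT_220 and 111 FPKM in KO_218 and at most 0.565 FPKM in the others. Med23 itself, counted over the whole gene and not over the deleted exons alone, had 10.1 to 12.9 FPKM in controls, against 8.12 to 9.97 FPKM in Med23 CKO, a log2 difference of -0.26 (exact permutation test, two-sided, p = 0.0571).

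Jun was the most abundant of the 10 genes, with a mean of 86.6 FPKM in control, followed by Jund at 51.8, Fos at 24.4 and Junb at 20.0 FPKM. Below these came Atf3 (7.80 FPKM), Fosl2 (7.64), Maff (7.10), Fosl1 (5.38), Fosb (1.01) and Batf (0.420). The steps from Jun to Jund, from Jund to Fos, from Junb to Atf3 and from Fosl1 to Fosb were found in 7 of 7 libraries. Other neighbours kept their order in only some libraries. Fos was above Junb, Atf3 above Fosl2, Fosl2 above Maff, and Maff above Fosl1 in 4 of 7 libraries each. Fosb was above Batf in 5 of 7.

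Among the 10 AP-1 genes, 0 differed between Med23 CKO and control at an unadjusted p under 0.05 by limma, a moderated test fitted across all 14151 genes on log2(FPKM + 1), and 0 by the exact permutation test of single genes. Over all genes tested, limma called 1.50% at that level, 0.502% higher and 0.996% lower, so that a count of 0 in 10 genes is near the background. At an adjusted p under 0.05, limma called 0 members and 0.00% of all genes in either direction. For 0 of the 10 genes did the values of the groups stand apart without overlap, against 2.32% of all genes tested (0.784% higher and 1.53% lower in Med23 CKO). The log2 difference was below 0 for 6 of the 10 genes and above 0 for 4, with a median of -0.15. Of all genes tested, 56.2% were below 0, so that 6 of 10 is near the background, and their median was -0.03. These counts moved with single libraries. Without KO_214, 2 members, Fos and Junb, were lower at an unadjusted p under 0.05, 8 of the 10 differences were below 0 and their median was -0.45. In the same fit, 205 of all genes were lower and 78 higher, and the median over all genes was -0.06. Without KO_117, the median was 0.13, with 5 differences below 0, and that of all genes was -0.04.

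**Figure D1:**
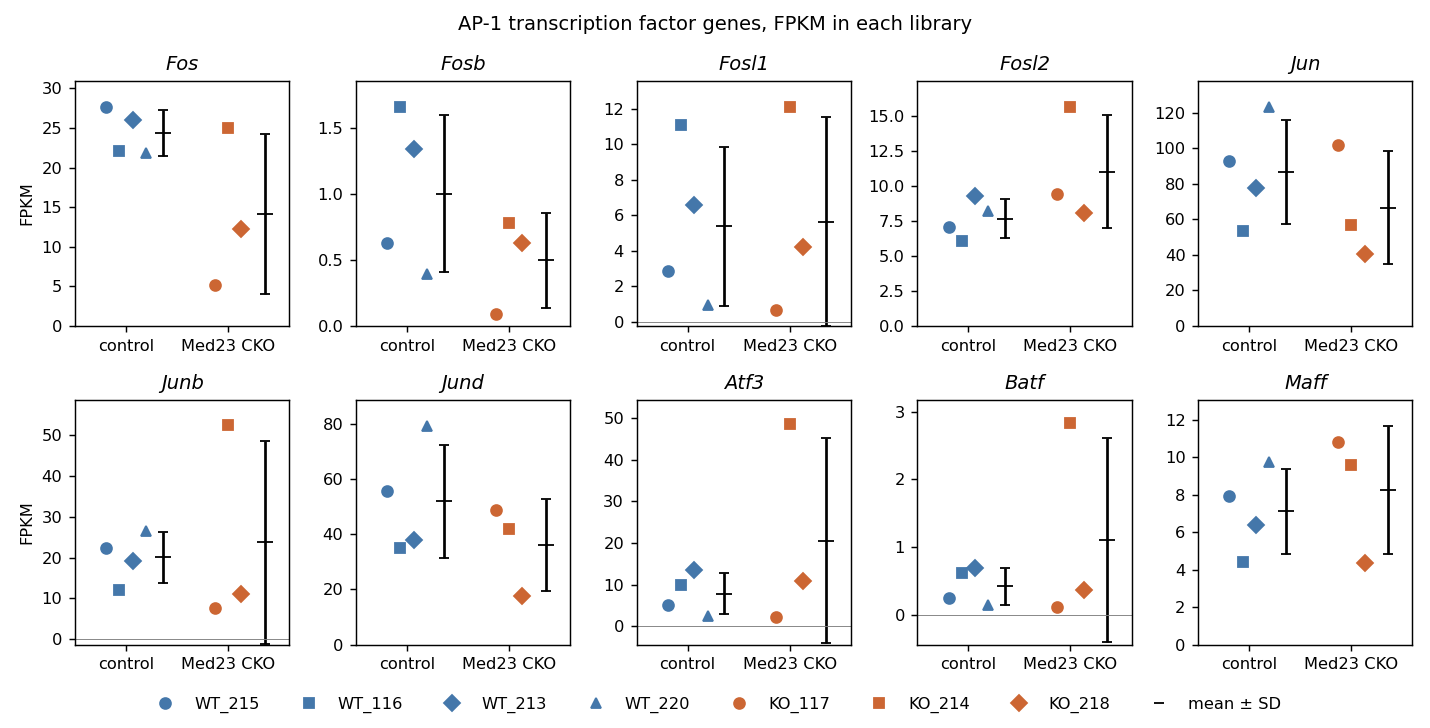
FPKM (y axis, linear) of each AP-1 gene in the 4 control and 3 Med23 CKO libraries, with a symbol for each mouse and the mean ± SD in black beside each group; SD bars that reach below 0 mark a wide spread and not negative values. The groups overlap for each of the 10 genes, and KO_214 (orange square) is the highest of the 7 libraries for 5 of them.

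**Figure D2:**
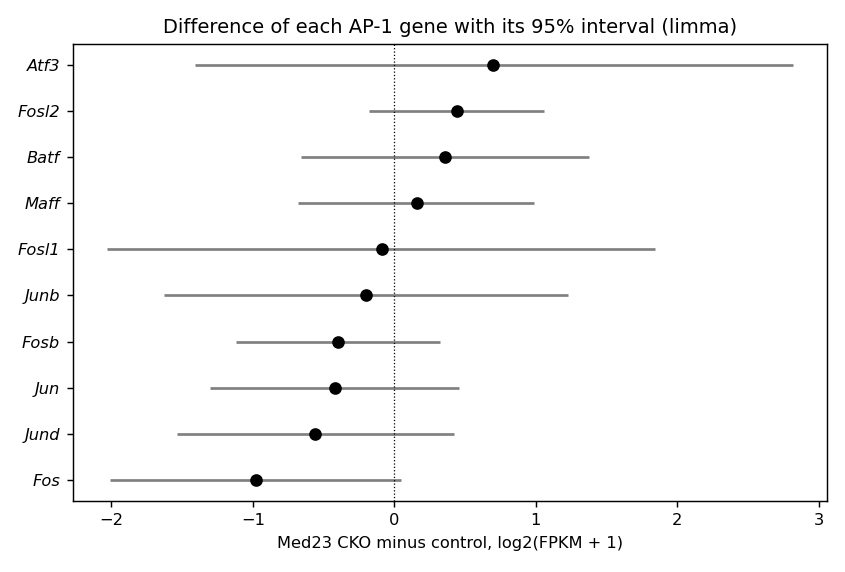
Difference between Med23 CKO and control in mean log2(FPKM + 1) for each AP-1 gene (x axis), with the 95% interval from limma as a grey line. Each interval crosses 0, from Fos (-2.01 to 0.05) to Atf3 (-1.41 to 2.82).

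Of the Fos family, Fos itself had 27.6, 22.1, 26.0 and 21.8 FPKM in WT_215, WT_116, WT_213 and WT_220, against 5.13, 25.0 and 12.2 FPKM in KO_117, KO_214 and KO_218. The controls lay close together, with a ratio of 1.27 between the highest and the lowest, and 13.0% of all genes tested had a smaller ratio. The Med23 CKO libraries spread over a ratio of 4.88, and 81.7% of genes had a smaller one. KO_117 and KO_218 were below each control, whereas KO_214 was within the control range. The log2 difference was -0.98 (95% interval -2.01 to 0.05, standard error 0.44), with a two-sided exact permutation p of 0.0857, and limma gave an adjusted p of 1. It was -1.49 without KO_214 and -0.45 without KO_117. Without KO_214, the unadjusted limma p was 0.00316 and the adjusted p was 1.

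Fosb, which is induced together with Fos and has a stable short form linked to repeated stimulation, was low. It had 0.628, 1.66, 1.34 and 0.391 FPKM in the control libraries (in the same order) and 0.0939, 0.779 and 0.627 FPKM in Med23 CKO. KO_117 was below each control and the other libraries overlapped, with a log2 difference of -0.40 (95% interval -1.12 to 0.32, exact permutation p = 0.257). The log2 ratio of its group means was -1.01. Fosl1 varied most among the Fos genes in control, with 2.87, 11.1, 6.56 and 0.946 FPKM, and had 0.631, 12.1 and 4.18 FPKM in Med23 CKO. Its groups covered a similar range, with a ratio of 19.2 between the highest and the lowest library and a log2 difference of -0.09 (95% interval -2.03 to 1.84, exact permutation p = 0.943). Fosl2 had 7.06, 6.03, 9.25 and 8.21 FPKM in controls, against 9.38, 15.6 and 8.03 FPKM in Med23 CKO. Here 2 of the 3 Med23 CKO libraries were above each control, and the log2 difference was 0.44 (95% interval -0.18 to 1.06, exact permutation p = 0.171). Fosl2 kept this direction with each library left out, from 0.18 without KO_214 to 0.62 without KO_218.

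In the Jun family, Jun had 92.7, 53.3, 77.5 and 123 FPKM in WT_215, WT_116, WT_213 and WT_220, against 102, 57.0 and 40.5 FPKM in KO_117, KO_214 and KO_218. KO_117, the library with the lowest Fos, was above 3 of the 4 controls for Jun. The log2 difference of Jun was -0.42 (95% interval -1.30 to 0.46, exact permutation p = 0.429). Jund, which is less inducible than Jun, followed a similar order of libraries, with 55.5, 34.8, 37.8 and 79.2 FPKM in controls, against 48.8, 42.0 and 17.4 FPKM in Med23 CKO. Its log2 difference was -0.56 (95% interval -1.54 to 0.42, exact permutation p = 0.371). For both genes KO_218 was the lowest library and WT_220 the highest, and without KO_218 both differences were -0.12.

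Junb, which can oppose Jun at some promoters, had another order of libraries than Jun and Jund. It had 22.4, 12, 19.1 and 26.6 FPKM in controls, against 7.60, 52.4 and 11.1 FPKM in Med23 CKO, so that KO_214 was above each control and the other Med23 CKO libraries were below each control. The log2 difference was -0.20 (95% interval -1.63 to 1.23, exact permutation p = 0.743), and it was -0.99 without KO_214 and 0.32 without KO_117. Without KO_214, Junb had an unadjusted limma p of 0.0245 and an adjusted p of 1.

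Atf3, which is induced by stress and by inflammatory signals, had 5.17, 10, 13.6 and 2.44 FPKM in controls, against 2.29, 48.7 and 10.8 FPKM in Med23 CKO. A single library, KO_214, was above the control range and KO_117 was below it. The log2 difference of 0.70 (95% interval -1.41 to 2.82, exact permutation p = 0.571) was -0.30 without KO_214 and 1.66 without KO_117. Batf showed the same layout at a lower level, with 0.238, 0.618, 0.685 and 0.140 FPKM in controls, against 0.109, 2.84 and 0.363 FPKM in Med23 CKO. Its log2 difference was 0.36 (95% interval -0.66 to 1.38, exact permutation p = 0.657), and -0.19 without KO_214. The log2 ratio of its group means, in which KO_214 weighs more, was 1.39. Maff had 7.92, 4.38, 6.36 and 9.76 FPKM in controls, against 10.8, 9.58 and 4.36 FPKM in Med23 CKO, with a log2 difference of 0.16 (95% interval -0.68 to 0.99, exact permutation p = 0.714). For Maff, KO_117 was the highest of the 7 libraries and KO_218 the lowest.

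**Figure D3:**
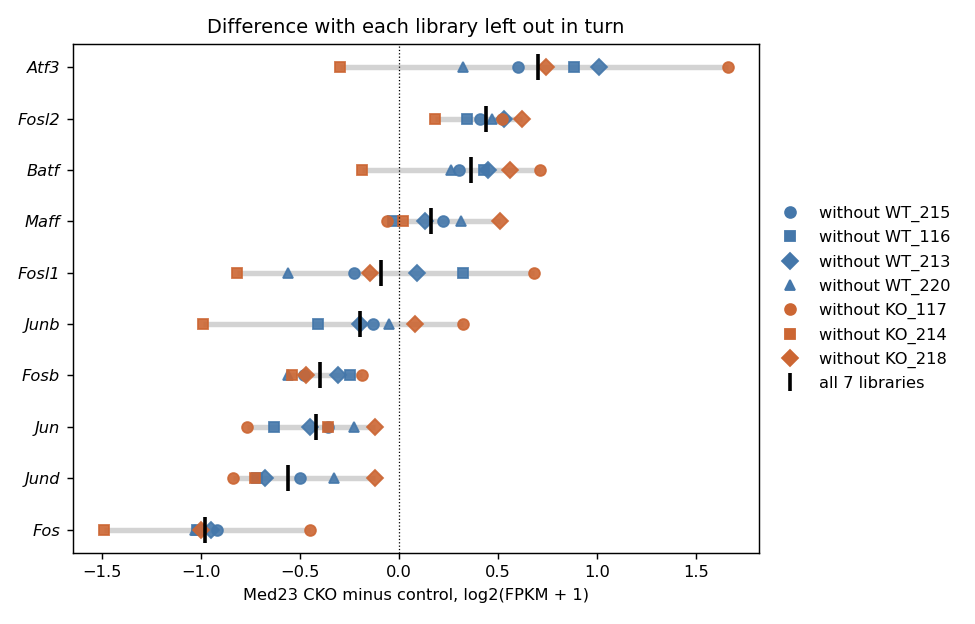
Log2 difference between Med23 CKO and control for each AP-1 gene (x axis) with all libraries (black bar) and after leaving out each library once (blue symbols, a control library; orange symbols, a Med23 CKO library). The widest spreads, for Atf3 (-0.30 to 1.66), Fosl1 (-0.82 to 0.68) and Junb (-0.99 to 0.32), run between the values without KO_214 and without KO_117.

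The spread within the Med23 CKO group was larger than within control for 9 of the 10 genes on the log2 scale, the exception being Fosb, and for 74.1% of all genes tested. KO_214 was the highest library for 5 of the 10 genes (Fosl1, Fosl2, Junb, Atf3 and Batf), against 25.4% of all genes tested. Of these, Batf passed the filter on low values only through KO_214. KO_117 was the lowest library for 6 of the 10 (Fos, Fosb, Fosl1, Junb, Atf3 and Batf), against 20.6% of all genes.

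Summed over Fos, Fosb, Fosl1 and Fosl2, the Fos family had 38.4 ± 5.11 FPKM (SD, n = 4) in controls, against 31.3 ± 19.9 FPKM (SD, n = 3) in Med23 CKO. The Jun family (Jun, Junb and Jund) had 158 ± 54.9 FPKM (SD, n = 4) in controls, against 126 ± 49.7 FPKM (SD, n = 3) in Med23 CKO. Fos family transcripts were 18.3%, 29.0%, 24.3% and 12.1% of the summed Fos and Jun families in WT_215, WT_116, WT_213 and WT_220, against 8.78%, 26.1% and 26.6% in KO_117, KO_214 and KO_218, so that the groups overlapped. Within the Fos family, the share of Fos itself was 72.4%, 54.0%, 60.3% and 69.6% in the control libraries and 33.6%, 46.8% and 48.7% in the Med23 CKO libraries, below each control in each of the 3. Among 13 shares computed, 2 others did not overlap. As a share of the 10 genes together, Fosl2 was 3.01% to 4.67% in control and 5.03% to 7.34% in Med23 CKO, and Maff was 2.80% to 3.58% in control and 3.60% to 5.79% in Med23 CKO. In KO_214, where Fos was 46.8% of its family, Fos itself had 25.0 FPKM, within the control range. Shares of one sum are tied to each other, since a change in any gene of the sum moves the shares of the rest. They were given as a description with no test.

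**Figure D4:**
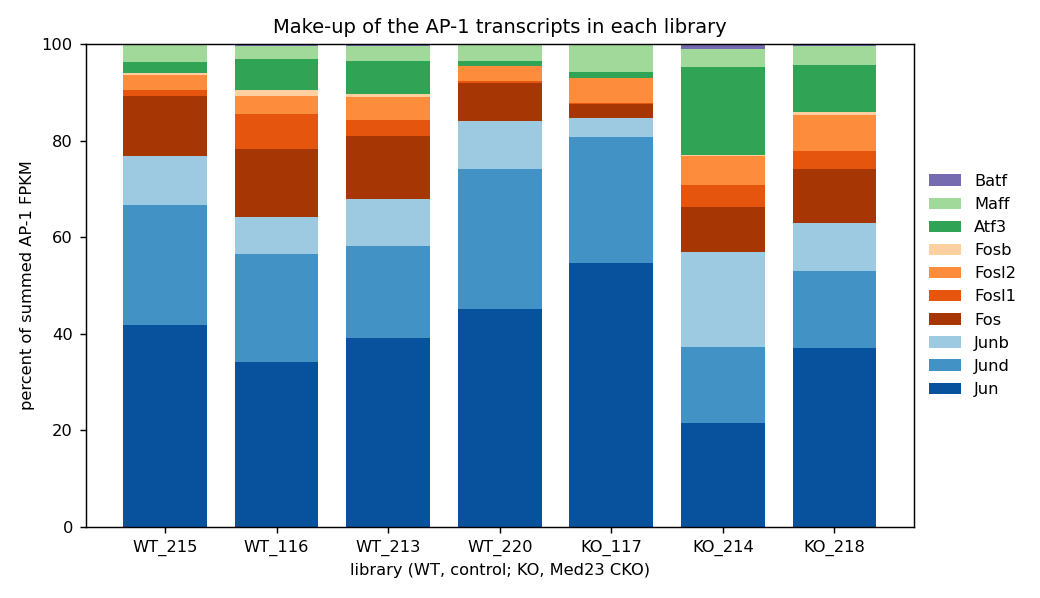
Share of each AP-1 gene in the summed FPKM of the 10 genes (y axis, percent) in each library (x axis), with Jun genes in blue, Fos genes in orange and brown, Atf3 and Maff in green and Batf in purple. Jun makes up between 21.4% (KO_214) and 54.6% (KO_117) of the total, and Fos between 2.75% (KO_117) and 14.2% (WT_116).

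Over the 7 libraries the genes fell into patterns that cut across the genotype. Fosl1, Atf3 and Batf were lowest in KO_117 and WT_220 and highest in KO_214, with a Pearson r of log2(FPKM + 1) of 0.94 between Atf3 and Batf, 0.89 between Fosl1 and Atf3 and 0.78 between Fosl1 and Batf. Jun and Jund had an r of 0.91, and Maff had an r of 0.76 with Jun and 0.77 with Jund. Fos had an r of 0.73 with Junb, 0.67 with Fosb and -0.07 with Jun. The patterns were not separate: Fosb had an r of 0.85 with Fosl1 and -0.7 with Maff, and Fosl2 had an r of 0.75 with Batf. Jun and Fosl1 ran opposite, with an r of -0.73. Each r is over 7 libraries that share 1 table and its scaling, and is a description.

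**Figure D5:**
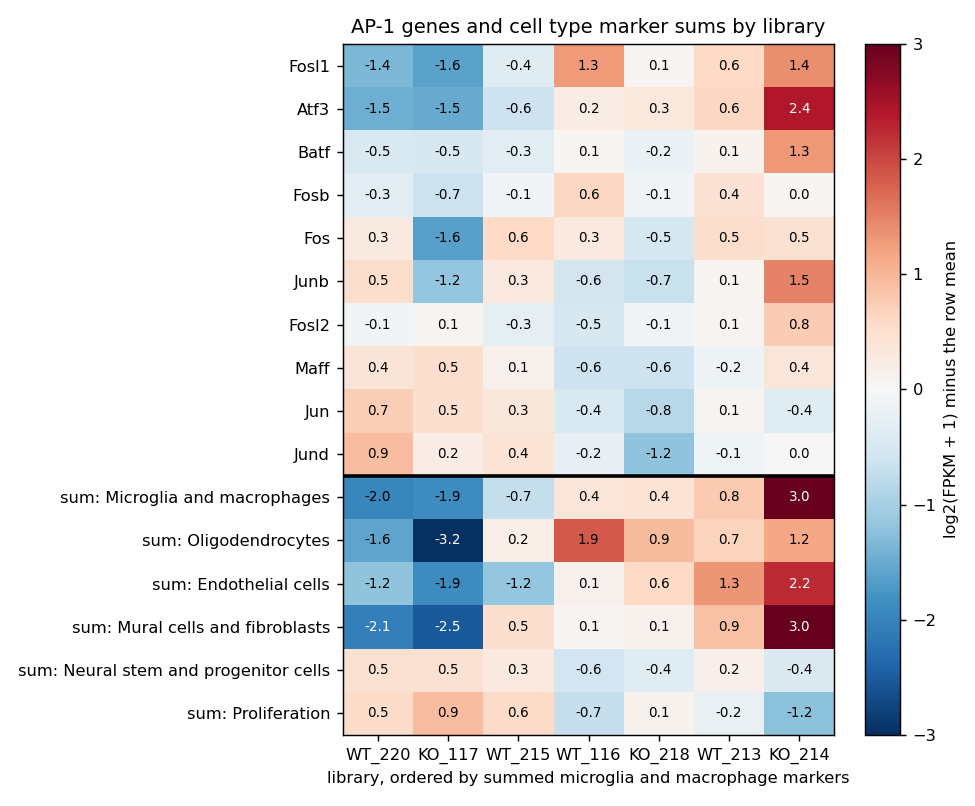
Log2(FPKM + 1) of each AP-1 gene, and of the summed FPKM of 6 cell type marker lists, minus the mean of its row (color scale, red above and blue below), in the 7 libraries ordered from the lowest to the highest sum of microglia and macrophage markers. Atf3, Batf and Fosl1 are lowest in WT_220 and KO_117 and highest in KO_214, while Jun, Jund and Maff are not. The microglia and macrophage sums share this layout (46.6, 49.4 and 1491 FPKM). So do the endothelial sums (10.2, 5.96 and 121 FPKM) and the mural cell and fibroblast sums (14.8, 10.5 and 537 FPKM).

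The genes most like Atf3 over the libraries, among 13132 with a mean of at least 1 FPKM, were Tyrobp (r = 0.998), Cd84 and Cd68 (both r = 0.997, n = 7 libraries), which are expressed in microglia and macrophages. Tyrobp had 39.0, 77.3, 109.5 and 14.3 FPKM in controls, against 16.0, 492 and 79.7 FPKM in Med23 CKO. Those most like Batf were Irf5 (r = 0.998), Rab3il1 and Lat2. KO_214 was the highest library for Atf3, Batf, Fosl1, Fosl2 and Junb. It was also highest for 12 of the 13 microglia and macrophage markers tested, 8 of 8 endothelial markers and 9 of 9 mural cell and fibroblast markers. Cx3cr1, the microglia marker too low to be tested, had 0.157 FPKM in KO_214, against 0.0866 to 0.782 FPKM in control. It had 0.109 FPKM in KO_117 and 0.722 FPKM in KO_218. Among controls, Junb was highest in WT_220 (26.6 FPKM), where the microglia and macrophage sum was lowest (46.6 FPKM). Endothelial markers summed to between 10.2 and 63.8 FPKM in control and to 5.96, 121 and 38.1 FPKM in KO_117, KO_214 and KO_218, and mural cell and fibroblast markers to between 14.8 and 121 FPKM in controls, against 10.5, 537 and 71.0 FPKM in Med23 CKO. None of these markers was listed at 0 in any library. Their part in the values of Atf3, Batf, Fosl1, Fosl2 and Junb was not tested. Jun was closest to Ercc1 (r = 0.997), a DNA repair gene, Fam193b and Rbm17, and Fos to Mkl2 (r = 0.993), a coactivator of serum response factor, Gm5617 and Rab11fip4. Mkl2 had 9.38, 8.68, 10.2 and 9.06 FPKM in controls, against 3.50, 9.09 and 6.07 FPKM in Med23 CKO.

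Other genes around AP-1 were counted by lists that were set with earlier results of these data known. Of 28 kinases, phosphatases and other regulators of Fos and Jun, 0 were called by limma at an unadjusted p under 0.05, with 15 differences above 0, 13 below 0 and a median of 0.01. The most abundant of them, the basic helix-loop-helix factor gene Tcf4 and the ERK phosphatase Dusp6, had log2 differences of -0.14 and -0.03. The study names a TCF4 protein beside ELK1, and whether the symbol Tcf4 is the gene of that protein was not checked. Of 16 tested dimer partners and relatives (19 in the list), 0 were called, with a median log2 difference of 0.07. Atf4, a stress-induced partner and the most abundant of them, had 135 ± 11.2 FPKM (SD, n = 4) in controls, against 139.7 ± 10.9 FPKM (SD, n = 3) in Med23 CKO. Ddit3, another stress-induced relative, ranged from 18.3 to 129.7 FPKM in control and from 12.5 to 111 FPKM in Med23 CKO. Batf2, Mafa and Nrl were too low to be tested.

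Of 26 other immediate early genes, limma called 2 lower at an unadjusted p under 0.05 (0.996% of all genes tested) and 0 higher, and the median log2 difference was -0.32. These were Egr1, a zinc finger factor induced with Fos (log2 difference -2.20), and the orphan nuclear receptor gene Nr4a1 (-1.24), each with an adjusted p of 1 in limma. Egr1 had 146, 23.7, 37.9 and 159.8 FPKM in controls, against 4.76, 36.9 and 14.5 FPKM in Med23 CKO, and KO_214 was within the control range. Nr4a1 and the activity-dependent factor Npas4 were the 2 genes of the list with all 3 Med23 CKO libraries below the lowest control. Over all genes tested, 1.53% were lower in this way. Npas4 had 1.07, 1.52, 1.16 and 0.967 FPKM in controls, against 0.279, 0.932 and 0.612 FPKM in Med23 CKO. The count of lower genes among the 26 was 8 without KO_214, 7 without WT_116, 1 without WT_215 or WT_220 and 0 without KO_218. Over all genes, the lower calls in these fits numbered 205 without KO_214, 202 without WT_116, 79 without WT_215, 76 without WT_220 and 70 without KO_218. Of 24 tested genes known to have AP-1 sites (25 in the list, Fosl1 among them), 20 had differences above 0, with a median of 0.47. Of all genes tested, 56.2% had a difference below 0. Among the 24, 1 was lower and 0 were higher at an unadjusted p under 0.05 by limma. The lower gene was Hbegf, an EGF receptor ligand, with 28.0, 29.2, 42.6 and 32.3 FPKM in controls, against 10.2, 28.5 and 17.9 FPKM in Med23 CKO. That count of lower genes was 2 without WT_116 and 0 without KO_218, WT_213 or WT_220. KO_214 was the highest library for 21 of these 24 genes. Spp1, which macrophages and other cells make, had 5419.7 FPKM there, 69.9 FPKM in KO_117 and 97.6 to 922 FPKM in control. It had the highest mean of the list over all libraries, whereas in control Mt1 had a higher mean (629 against 498 FPKM).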

How the data were processed

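The authors checked reads with FastQC, removed adapters with cutadapt, mapped them with Tophat (default parameters, mm10) and calculated FPKM per gene and library with Cuffdiff, which they deposited for 7 libraries (versions other than that of cutadapt are not given in the sources used here). The same table holds the authors' group means, fold changes and test results, which were not used, and 0 columns lacked a sample. Columns were matched to mice by title. Depth is unknown: ratios of low values between libraries showed no steps of single reads (at most 3.72% of low genes shared a ratio bin of 0.05 log2 over 21 pairs of libraries). No interval for counting error could be given, also for the low genes Fosb and Batf. No libraries were identical (correlations of log2(FPKM + 1) from 0.788 to 0.979).

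Med23 CKO and control were compared on log2(FPKM + 1) for the 14151 genes whose FPKM averaged at least 0.5, with limma 3.58.1 (lmFit, eBayes with trend, two-sided, Benjamini-Hochberg) in R 4.3.3. Fold changes on this scale are understated for low genes. Single genes were tested by exact permutation over all 35 assignments of 3 and 4 libraries (two-sided, smallest p 0.0286). The test was tried on simulated data with the same 14151 genes. Of the 200 genes given a change of 2 (log2), 123 were called (adjusted p under 0.05), as were 5 unchanged genes. The simulated levels were set above the measured ones, and noise was drawn independently for each gene and library, without shifts shared across a library. In the simulation 4.99% of unchanged genes had an unadjusted limma p under 0.05, against 1.50% of all measured genes. The share recovered is therefore not a measure of power in these libraries. The genes described and the lists were chosen with earlier results of these data known. Of each list, genes with an unadjusted p under 0.05 or with groups apart (at most 6) and the 2 most abundant were set to be named, and for each member the 3 genes with the highest r. A selection of these is printed. Sequences are from RefSeq (GRCm38.p6), coordinates from GENCODE M21.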

Additional observations from a re-analysis of the deposited data

How the results depend on the processing

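The alternatives were no filter on low values, a pseudocount of 0.1, a filter at a mean of 1 FPKM (which left Fosb and Batf untested), quantile normalization, median centring, limma without trend, with robust empirical Bayes or with array weights, a term for the digit that opens the mouse number, the mice numbered from 200 alone (3 control and 2 Med23 CKO), the log2 ratio of group mean FPKM, exact permutation and each library left out in turn. The digit is a part of the label whose meaning is not given. With array weights, whose estimation stopped before it converged, 3 members were lower at an unadjusted p under 0.05 (Fos, Jun and Jund), and 193 of all genes were higher and 887 lower. With the term for that digit, 1 member was lower (Fos), and 61 of all genes were higher and 101 lower. In the mice numbered from 200 alone, 1 member was lower (Jun, log2 difference -0.98), and 445 of all genes were higher and 1374 lower. Without the filter, 195 genes were higher and 273 lower. Fos was below 0 under each of these settings, from -1.49 to -0.45, as were Fosb, Jun and Jund, and Fosl2 was above 0 under each. Maff was -0.33 with array weights and -0.24 in the mice from 200 alone. Fosl1 was 1.1 and Junb 0.11 in the mice from 200 alone, and by the ratio of group means Fosl1 was 0.07, Junb 0.24, Fosb -1.01 and Batf 1.39. With a pseudocount of 0.1, Fosb was -0.97 and Batf 0.51. The cause of these turns was not tested.

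Leaving out each library once, the members lower at an unadjusted p under 0.05 numbered 0 to 2 (2 without KO_214), all genes higher 45 (without WT_215) to 354 (without KO_117), all genes lower 70 (without KO_218) to 410 (without KO_117), and genes at an adjusted p under 0.05 0 to 1. The log2 differences ran from -0.82 to 0.68 for Fosl1, -0.99 to 0.32 for Junb, -0.06 to 0.51 for Maff, -0.30 to 1.66 for Atf3 and -0.19 to 0.71 for Batf. Immediate early genes lower numbered 0 to 8 and higher 0 to 1, genes known to have AP-1 sites lower 0 to 2 and higher 0 to 1, regulators of Fos and Jun 0 to 1 in each direction, and dimer partners lower 0 to 1. No paired analysis was possible because the labels do not give the litter of each mouse.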

Other observations

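The patterns of the members not described above were closest to those of genes with varied roles, by Pearson r of log2(FPKM + 1) over 7 libraries among 13132 or 13133 genes searched. Fosb was closest to Poli (r = 0.989), Map1b, a microtubule protein of growing neurites, and Prepl. Map1b had 17.6 to 29.3 FPKM in controls, against 14.1 to 21.2 FPKM in Med23 CKO. Fosl1 was closest to Arl6ip5 (r = 0.998), the semaphorin Sema3c and Mmaa. Fosl2 was closest to Plcd3 (r = 0.987), Afg3l2 and Scpep1, Jund to Mypop (r = 0.992), Nprl3 and Gas2l1, and Maff to Foxo4 (r = 0.998) and Calr, a chaperone of the endoplasmic reticulum. Junb was closest to Gmpr (r = 0.968), Cx3cl1 and Asb8. Cx3cl1, the ligand of the microglial receptor Cx3cr1, had 26.3, 17.7, 23.5 and 33.4 FPKM in WT_215, WT_116, WT_213 and WT_220, against 10.1, 48.3 and 20.4 FPKM in KO_117, KO_214 and KO_218. With 7 libraries and this many genes searched, high values of r are to be met for any gene, and these are given as descriptions.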
